A study of Mus musculus with 2 samples.

Results

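The cathepsins and legumain, the proteases of the lysosome, were followed across the leukocytes of mouse tumors. The genes are Ctsa, Ctsb, Ctsc, Ctsd, Ctsh, Ctsk, Ctsl, Ctss, Ctsz and Lgmn, 10 of the 27998 rows in the gene table that both libraries share. They were taken by symbol, and each symbol matched 1 row. No measured value was used as a rule to pick them, but they were chosen with earlier results of these data known. CD45+ cells, the pan-leukocyte fraction, came from subcutaneous tumors of Lewis lung carcinoma (LLC), a mouse lung cancer line, in C57/BL6 mice. LLC cells were implanted at 8 weeks of age, and tumors were taken on day 14, when the mice were 10 weeks old. Control mice were miR-21fl/fl, with loxP sites around both copies of miR-21 and no Cre. LysMCre;miR-21fl/fl mice carry the same floxed alleles and Cre in the lysozyme M gene (Lyz2), which is active in macrophages, monocytes and granulocytes and not in lymphocytes. Cells of 3 mice were pooled for each genotype and run as 1 droplet library (10x 3′ chemistry), so there are 2 libraries and no replicate of either. No test between them was possible, and every interval below is an exact 95% interval that covers counting error only. The titles call the libraries wt and cko, while the source description names the conditional knockout for the library titled wt. The growth protocol names a gate for macrophages (CD11b+, MHCII+, F4/80+) where the design text names CD45+ alone. Each library is therefore named by its title, as labelled wt or labelled cko, and pairs of values are given in that order.

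Cathepsins are made as inactive precursors, sorted to the lysosome by mannose 6-phosphate receptors, and activated in its acid interior. Cathepsins B, L, S and K are cysteine endopeptidases. Cathepsins C, H and Z (also called X) are cysteine proteases that trim ends of proteins, cathepsin D is an aspartic protease, cathepsin A a serine carboxypeptidase, and legumain cuts after asparagine and helps other cathepsins mature. In macrophages and dendritic cells they break down engulfed protein and cut the invariant chain CD74 so that MHC class II can load peptide, a step in which cathepsin S leads in many antigen-presenting cells. Cathepsin C activates the granule proteases of cytotoxic lymphocytes and neutrophils, and cathepsin K is the collagen-degrading protease of osteoclasts, the cells that resorb bone. Cystatins, which include Cst3 and Cstb, inhibit the cysteine members.

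Promoters of 4 members are shown, the first pair for their position and the second as examples of a shared motif; no level below was tested against them. Ctsk (chr3:95499256-95509362, plus strand, GRCm38) and Ctss (chr3:95526786-95556403, plus strand) are neighbours in the same orientation, with 17423 bases between them, and had opposite patterns in the cells with the most Ctsk. Ctsd and Ctsa carry the E-box CACGTG, the core of the motif bound by TFEB, TFE3 and MITF, which are known regulators of lysosomal genes. Each sequence is a RefSeq window (GRCm38.p6) from 250 bases before the transcript start to 50 after it, read 5′ to 3′. Capitals mark CACGTG, with a flanking T before it or A after it where present.

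Ctsk, chr3:95498960-95499259, plus strand: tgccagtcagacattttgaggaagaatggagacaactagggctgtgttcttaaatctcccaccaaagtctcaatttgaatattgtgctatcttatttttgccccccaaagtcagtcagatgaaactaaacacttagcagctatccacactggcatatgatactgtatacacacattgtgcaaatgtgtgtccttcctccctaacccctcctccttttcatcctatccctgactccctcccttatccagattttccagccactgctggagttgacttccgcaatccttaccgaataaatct
Ctss, chr3:95526536-95526835, plus strand: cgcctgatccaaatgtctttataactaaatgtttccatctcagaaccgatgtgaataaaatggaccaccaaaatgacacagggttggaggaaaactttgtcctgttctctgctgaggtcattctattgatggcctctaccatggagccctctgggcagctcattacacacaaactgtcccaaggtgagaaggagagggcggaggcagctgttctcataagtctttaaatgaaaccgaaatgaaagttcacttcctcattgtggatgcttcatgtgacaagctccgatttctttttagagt
Ctsd, chr7:142387778-142388077, minus strand: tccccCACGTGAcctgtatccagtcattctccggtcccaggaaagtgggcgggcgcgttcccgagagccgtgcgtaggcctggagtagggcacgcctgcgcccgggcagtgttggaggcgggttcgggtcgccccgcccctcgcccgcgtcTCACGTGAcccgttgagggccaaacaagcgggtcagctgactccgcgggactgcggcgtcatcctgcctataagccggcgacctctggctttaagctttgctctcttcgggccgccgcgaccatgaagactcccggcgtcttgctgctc
Ctsa, chr2:164833523-164833822, plus strand: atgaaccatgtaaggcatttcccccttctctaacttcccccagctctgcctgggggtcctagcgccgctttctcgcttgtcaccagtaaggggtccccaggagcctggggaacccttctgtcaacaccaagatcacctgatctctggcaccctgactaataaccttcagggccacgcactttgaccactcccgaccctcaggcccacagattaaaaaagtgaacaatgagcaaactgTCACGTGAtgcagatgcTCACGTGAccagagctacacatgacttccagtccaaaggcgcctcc

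RefSeq windows were given for 8 of the 10 members. CACGTG, which reads the same on both strands, was in 4 of their 10 windows (Ctsa, Ctsd, Ctsl and Lgmn) and in 7.15% of all 32851 windows. The 7-base form TCACGTG, searched on both strands and overlapping the first, was in 3 member windows (Ctsa, Ctsd and Lgmn) and in 3.77% of all windows. Neither was in the Ctsk or Ctss window. The members can be told apart by reads: no 98-base stretch of their annotated transcripts was shared between members. Ctsd shared 712 of 2349 such stretches (30.3%) with the overlapping annotated gene Gm49369, and Ctsl shared 4.53% with Gm49230; neither gene is a row of the files.

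The libraries were close in depth, with 2449 and 2718 cells, 24492486 and 27163485 UMIs (unique molecules) and medians of 8359 and 8247 UMIs per cell. The shallowest cells held 3184 and 3187 UMIs. After filters, 2397 and 2645 cells were kept. Only 5 barcodes occurred in both libraries. Lyz2, in which the Cre is inserted, was at 21087 and 10325 CPM (UMIs of a gene scaled to 1e+06 in all) in monocyte/macrophage cells, and Lyz1 was at 41.8 and 205 CPM. Rows for miR-21 itself were not analysed here.

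Classes were gated on UMIs of marker genes, none of them a member. Monocyte/macrophage cells (1744 and 1733 cells) held classical monocytes (Ly6c2, 544 and 513), nonclassical monocytes (203 and 181), transitional cells with both Ly6c2 and the complement genes C1qa, C1qb and C1qc (216 and 163), C1q macrophages (434 and 542) and other cells (347 and 334). The C1q macrophages were divided into cells with Folr2, Vcam1 or Ccl8 (49 and 48), cells with Cd300e, Clec4b1 or Pparg (87 and 166), and the rest (298 and 328). Dendritic cells comprised CD209a (20 and 32), XCR1 (20 and 16) and mature CCR7 cells (13 and 30), with plasmacytoid dendritic cells apart (17 and 19). Lymphocytes comprised CD8 T (77 and 110), CD8-negative T (73 and 70) and NK cells (57 and 51). There were 53 and 102 granulocytic cells. Cells with 10 or more UMIs of Acp5 (171 and 273) were taken out first and are in none of these classes. B cells (5 and 6) were too few to describe, and 17 and 23 cells with markers of more than 1 lineage and 130 and 180 unclassified cells were left out. Levels are CPM of the UMIs summed over the cells of a class, and are compared between classes for a gene, not between genes. The orders of classes given next leave the Acp5 cells aside.

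Among the endopeptidases, Ctss varied little over the monocyte and macrophage classes, while Ctsb and Ctsl were more than 2-fold higher in the highest macrophage class than in classical monocytes. Ctss, the invariant chain protease, was at 3633 and 3581 CPM in classical monocytes, 4032 and 4059.9 in transitional cells, 3376 and 3455 in nonclassical monocytes and 3254 and 3305 in C1q macrophages. Transitional cells lay above classical monocytes in both libraries, with intervals that did not overlap, whereas the 3 kinds of C1q macrophage took a different order in each library. Ctss was lower in CD209a dendritic cells, at 2214 and 2393 CPM, and in plasmacytoid dendritic cells, at 1387 and 1426 CPM. Ctsb, a general protease of endosomes and lysosomes, was at 6022 and 4869 CPM in the C1q macrophages with Folr2, Vcam1 or Ccl8, 3753 and 3455 in other C1q macrophages, 2559.7 and 2839.7 in transitional cells and 1436 and 1559.9 in classical monocytes. At each of these steps the intervals did not overlap in either library. Ctsl, another broadly acting endopeptidase, had its highest level outside the macrophages, at 2536 and 1922 CPM in plasmacytoid dendritic cells against 1125 and 793 in the highest macrophage class and 254 and 214 in nonclassical monocytes.

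The trimming enzymes divided the same cells differently. Ctsc was highest in C1q macrophages with Folr2, Vcam1 or Ccl8 (4698 and 4152 CPM) and transitional cells (4328 and 4372 CPM), whose order differed between the libraries. It was at 3349 and 3395 CPM in classical monocytes and 2164 and 2182 CPM in nonclassical monocytes, which lay below the classical ones in both. In CD8 T and NK cells, where cathepsin C activates granzymes, Ctsc was at 268 and 280.4 and at 272 and 328 CPM. Ctsh, an aminopeptidase, was highest in plasmacytoid dendritic cells at 2204 and 2852 CPM, followed by C1q macrophages with Folr2, Vcam1 or Ccl8 at 1213 and 1227 CPM. CD209a dendritic cells held 733 and 981 CPM of Ctsh, near the 781 and 804 CPM of classical monocytes. Ctsz, a carboxypeptidase, ranged over the monocyte and macrophage classes from 893 and 1004 CPM in nonclassical monocytes to 1614 and 1642 CPM in C1q macrophages with Folr2, Vcam1 or Ccl8, and lymphocytes held 166 and 138 CPM.

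The aspartic protease, the serine carboxypeptidase and legumain each had an order of its own. Ctsd was at 1389 and 1005 CPM in C1q macrophages with Folr2, Vcam1 or Ccl8, at 860.0 and 709 CPM in NK cells and at 726 and 647 CPM in CD8 T cells. Classical monocytes held 432 and 505 CPM, below the NK and CD8 T cells in both libraries, and dendritic cells only 79 and 111 CPM. In NK cells 1 cell gave 18.6% of the Ctsd UMIs in the library labelled wt, and the median NK cell stood at 766 and 660.0 CPM. Ctsa protects lysosomal sialidase and galactosidase. Over the monocyte and macrophage classes it lay between 463 and 489.8 CPM in classical monocytes and 683 and 663 CPM in C1q macrophages with Folr2, Vcam1 or Ccl8. Lymphocytes held 118 and 121 CPM of Ctsa. Lgmn was at 699.8 and 759 CPM in classical monocytes, 1563 and 1529 in transitional cells, 1996 and 1910.1 in C1q macrophages with Cd300e, Clec4b1 or Pparg, 2245 and 2028 in other C1q macrophages and 3262 and 2602 in those with Folr2, Vcam1 or Ccl8. At each step the intervals did not overlap in either library. Mature CCR7 dendritic cells held 836 and 632 CPM of Lgmn against 258 and 365 in CD209a dendritic cells. The mature cells also held 11 and 190.2 CPM of 4 tumor or epithelial markers, whose part in this was not tested.

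**Figure D1:**
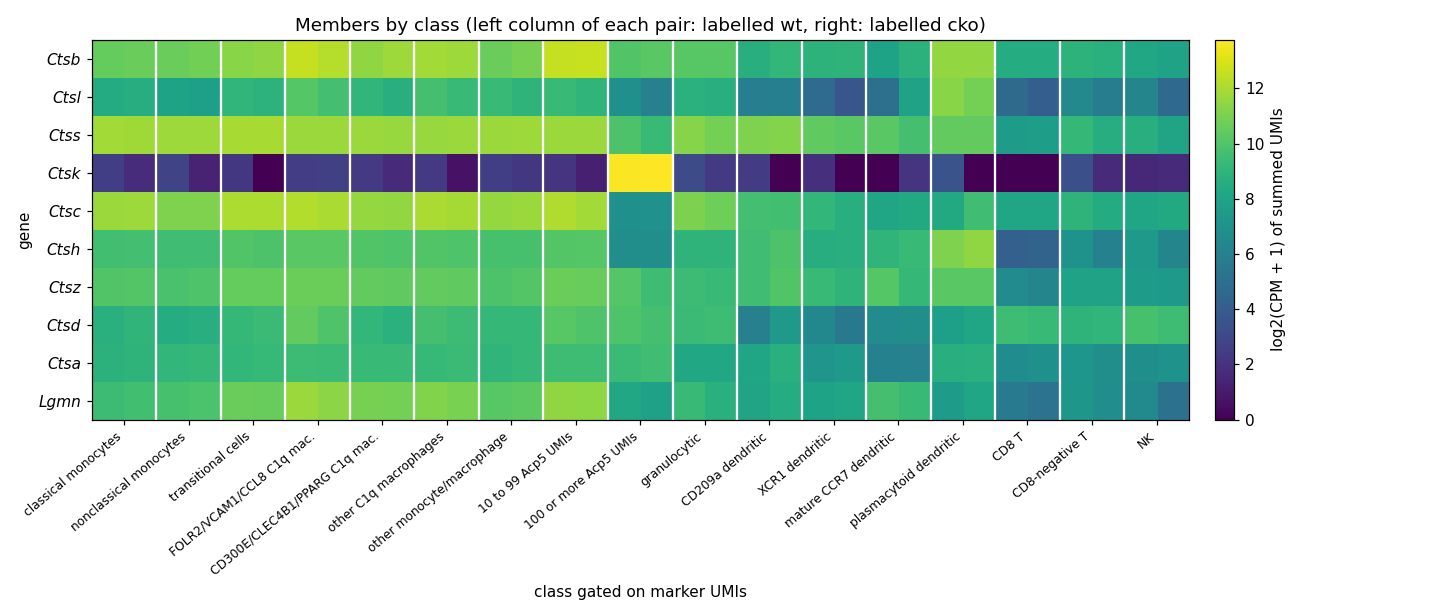
Level of each member (rows) in 17 classes (pairs of columns, with wt on the left and cko on the right), as colour on a log2(CPM + 1) scale. Ctsk stands out only in the cells with 100 or more Acp5 UMIs, and Ctsl and Ctsh are highest in plasmacytoid dendritic cells.

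C1q macrophages were compared with T and NK lymphocytes to ask which members set phagocytes apart. A gene was called where the CPM ratio was at least 2-fold the same way in both libraries and at least 100 UMIs were counted. Of the members, 8 were higher in macrophages and 0 lower, of 9 that reached 100 UMIs; over all 8101 genes tested, 14.1% were higher and 10.9% lower. The median log2 ratio of the members was 3.36 and 3.54, against -0.13 and -0.13 over all genes tested. Lgmn was at 2327 and 2052 against 89.2 and 52.7 CPM, 26.1- and 39-fold higher. Ctsh stood at 1056 and 1030.4 against 94 and 43.8 CPM, 11.2- and 23.5-fold higher. Ctsl was 14.1- and 21.5-fold higher, Ctsc 12.2- and 11.6-fold, Ctss 9.25- and 12.6-fold, Ctsb 10.3- and 10.3-fold and Ctsz 8.50- and 10.1-fold, and the smallest called ratio was that of Ctsa, at 5.28- and 5.43-fold. Ctsd was the exception, at 853 and 647 against 709 and 634 CPM, with log2 ratios of 0.27 (0.17 to 0.36) and 0.029 (-0.064 to 0.12). Ctsk had 21 and 9 UMIs in the macrophages and was not tested.

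RNA in lymphocyte droplets can come from macrophages, so each member was set beside C1qa, C1qb and C1qc, which T cells lack, as a percentage of the level in monocyte/macrophage cells. In CD8 T cells the C1q genes stood at 3.26% and 3.98% and Lyz2 at 2.02% and 2.02% of that level. Ctsd in CD8 T cells was at 120.3% and 112%, 37 and 28.3 times the C1q value. Ctsa at 18.8% and 20.6% and Ctsb at 15.5% and 14.5% also lay above it, as did Ctsc at 7.59% and 8.13%. Ctsh at 1.96% and 2.15% was below the C1q value in both libraries, and Lgmn at 3.38% and 2.63% and Ctsl at 4.64% and 3.55% lay on either side of it. Set against Lyz2 instead, Ctsh was at 0.968 and 1.06 times its value, Lgmn at 1.67 and 1.30 times and Ctsl at 2.30 and 1.75 times. Whether CD8 T cells express these 3 members cannot be told apart from carried-over RNA, and the part of such RNA in Ctss and Ctsz was not tested. NK cells had Ctsd at 143% and 123% with the C1q genes at 6.85% and 3.19%. CD8-negative T cells held more of the myeloid genes, chiefly in the library labelled wt, with the C1q genes at 11.3% and 6.58% and Lyz2 at 13% and 4.22%. The granule gene S100a9 was at 732 and 155 CPM in these cells and at 124 and 143 CPM in CD8 T cells. Carried-over RNA, doublets and wrongly gated myeloid cells cannot be told apart here. In CD8-negative T cells labelled wt, Ctsb, Ctsc, Ctsh, Ctsl and Ctss were all within 1.76 times the C1q value.

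**Figure D2:**
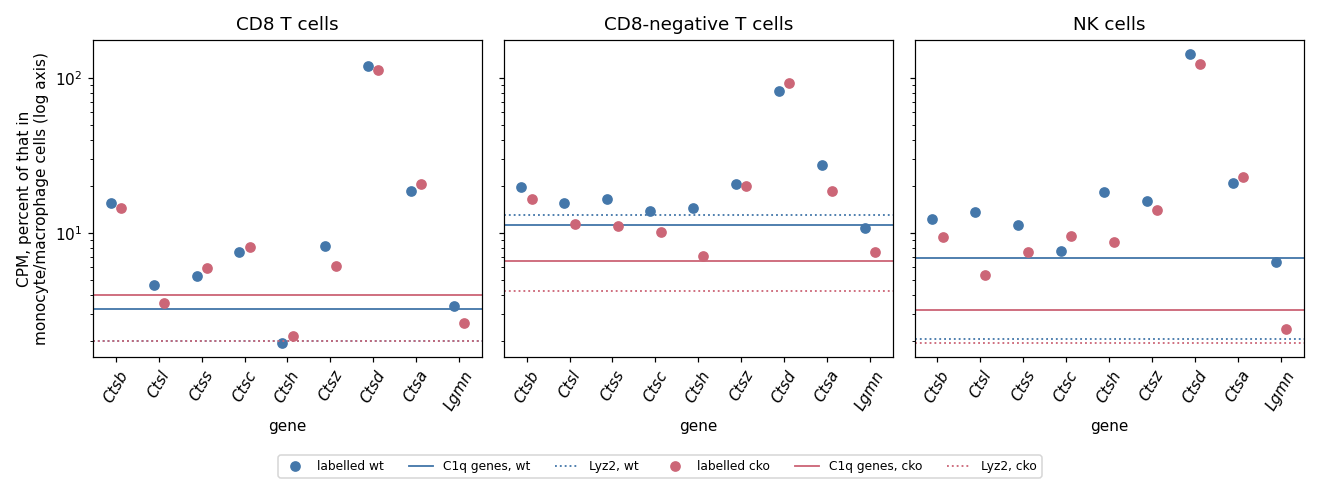
Level of 9 members in CD8 T, CD8-negative T and NK cells as a percentage of their level in monocyte/macrophage cells (log axis), by library, with that of the C1q genes (solid lines) and Lyz2 (dotted lines). Ctsd lies between 82.8% and 143% in all 3 classes, while in CD8 T cells Lgmn lies just above the solid line for wt and below that for cko.

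The share of cells with at least 1 UMI gave the same 8 members after each cell was thinned to 3000 UMIs. For 8 members the share in C1q macrophages lay above that in lymphocytes, with Clopper-Pearson intervals that did not overlap in either library. Lgmn was found in 96.5% (94.4 to 98.1) and 96.9% (95 to 98.2) of macrophages and in 15.9% (11.2 to 21.7) and 14.7% (10.4 to 19.96) of lymphocytes. Ctss was found in 99.5% (98.3 to 99.9) and 99.6% (98.7 to 99.96) of macrophages and 51.2% (44.2 to 58.2) and 54.1% (47.5 to 60.7) of lymphocytes. Ctsd was found in 78.3% (72 to 83.7) and 78.4% (72.5 to 83.5) of lymphocytes and in 73.3% (68.8 to 77.4) and 75.1% (71.2 to 78.7) of macrophages, with overlapping intervals, and in 18.9% (9.44 to 32) and 26.9% (17.5 to 38.2) of dendritic cells. Without thinning, Ctsd was found in 90.8% and 92.2% of lymphocytes, 94.7% and 93.2% of macrophages and 50.9% and 51.3% of dendritic cells, and Lgmn in 99.8% and 99.6% of macrophages and 31.4% and 27.7% of lymphocytes. Median depth was 10137 and 9341 UMIs in the macrophages, 6091 and 6770 in the lymphocytes and 10886 and 9029 in the dendritic cells. No cell was too shallow to thin.

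Other genes of the lysosome were counted by role in the same comparison of C1q macrophages with lymphocytes. Some genes reached 100 UMIs only through the class where they are high, and would have missed it with both classes at the lower level. Such genes had to differ and are left out of the list counts of the class comparisons, here and below. No member call between classes was among them. The shares given over all genes still include such genes. Of 16 hydrolases, 13 were higher in macrophages and 1 lower, where 14.1% of all genes tested were higher and 10.9% lower. Hexa, a subunit of hexosaminidase, was at 598 and 564 against 60.1 and 58.4 CPM, and the acid ceramidase gene Asah1 at 314 and 306 against 39.3 and 34.4 CPM, while the sphingomyelinase gene Smpd1 was lower at 10.3 and 9.95 against 30.3 and 36 CPM. Of 12 membrane proteins and cofactors 8 were higher, led by Cd68 at 943 and 883 against 69.6 and 44.3 CPM, and of 14 proton pump genes 7 were higher, led by Tcirg1 at 114 and 126 against 29.2 and 27.6 CPM; none of either list was lower. All 4 substrates and partners were higher, with Cd74 at 22718 and 24507 against 1963 and 760.0 CPM. Of 5 inhibitors, 1 was higher, Cstb at 956 and 793 against 219 and 207 CPM, and 2 were lower. These were Cst7, also called cystatin F, at 9.31 and 9.07 against 375 and 464 CPM, and Serpinb9, an inhibitor of granzyme B, at 22.2 and 15.9 against 475 and 588 CPM. Of 5 sorting genes and regulators, 2 were higher and 1 lower, with Tfe3 at 33.3 and 33.9 against 11.9 and 10.4 CPM. Ctsw, a cathepsin of cytotoxic lymphocytes that is no member and one of the genes left out, stood at 1.39 and 1.05 against 493 and 374 CPM, and Serpinb1a, another, at 1.78 and 10.6 against 45.2 and 64.7 CPM.

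Within the monocyte and macrophage lineage, 2 members were higher in C1q macrophages than in classical monocytes and 0 lower, against 4.82% of genes higher and 2.55% lower. The members' median log2 ratio was 0.43 and 0.37, against 0.067 and 0.080 over all genes tested. Lgmn was 3.33- and 2.70-fold higher, with log2 ratios of 1.73 (1.68 to 1.79) and 1.44 (1.38 to 1.49). Ctsb was 2.70- and 2.31-fold higher, at 3872 and 3597 against 1436 and 1559.9 CPM. Ctsl passed 2-fold in the library labelled wt and not in the other, and Ctsd came just short of it in the first, with log2 ratios of 1.19 and 0.65 for Ctsl and 0.98 and 0.36 for Ctsd. Ctss and Ctsc differed least, at -0.16 and -0.12 and at 0.25 and 0.077. Of the genes around them, Cd63, a membrane protein of late endosomes, was higher at 563 and 392 against 42.9 and 39.8 CPM, and the lysosomal phospholipase Pla2g15 at 57.2 and 58.5 against 23 and 23.5 CPM. None of 15 proton pump genes tested and none of 4 substrates and partners was called; Cd74 stood at 22718 and 24507 against 11369 and 8930.4 CPM.

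Dendritic cells (CD209a, XCR1 and CCR7 cells together) held less of most members than monocyte/macrophage cells did. Of the 10, 7 were lower and 0 higher, where 8.5% of genes were lower and 5.25% higher, and the members' median log2 ratio was -1.85 and -1.55, against -0.027 and 0.015 over all genes tested. Ctsc was at 591 and 504 against 3530.3 and 3447 CPM, with log2 ratios of -2.58 (-2.72 to -2.44) and -2.78 (-2.91 to -2.64). Ctsd was at 79 and 111 against 603 and 576 CPM and Ctsb at 424 and 499 against 2399 and 2534 CPM. Ctsl, Lgmn, Ctsa and Ctss were also called lower; Ctss was 2.19- and 2.34-fold lower and still at 1597 and 1491 CPM. The 3 members without a call were Ctsh, with log2 ratios of -0.85 and -0.41, Ctsz, with -0.72 and -0.80, and Ctsk, with 2 and 1 UMIs. Cd74 and H2-DMa, through which MHC class II is loaded, did not pass the 2-fold threshold, at 27297 and 22599.7 against 18437 and 17812 CPM and at 1003 and 914 against 882 and 859.8 CPM. The inhibitors went the other way, with 4 of 6 higher, among them Serpinb9 at 299.8 and 448 against 14.9 and 12 CPM. The cystatin Cst3 was another of the 4, at 24037 against 2638 CPM in the library labelled wt. The cystatin Cstb was lower, at 339 and 351 against 908 and 866 CPM. In the XCR1 cells the C1q genes stood at 20.05% and 22.3% of the monocyte/macrophage level and in the CD209a cells at 3.67% and 3.00%; their part in the member levels was not tested. Of the remaining lists, 1 hydrolase was higher and 5 lower, and 3 membrane proteins and cofactors and 2 proton pump genes were lower.

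Plasmacytoid dendritic cells differed from both groups. Ctsl was at 2536 and 1922 against 562 and 467 CPM, 4.51- and 4.11-fold higher than in monocyte/macrophage cells, and Ctsh at 2204 and 2852 against 914 and 909 CPM, 2.41- and 3.14-fold higher. These 2 members were called higher and 4 lower, against 10.8% and 17.9% of genes; the members' median log2 ratio was -0.21 and -0.77, against 0.33 and 0.26 over all genes tested. The class is small, with 17 and 19 cells, but Ctsl was found in every one of them and no cell gave more than 13.1% of its UMIs. The median cell held 2545 and 1710.0 CPM of Ctsl and 2286 and 2927 CPM of Ctsh. Lower were Lgmn at 197 and 269.5 CPM, Ctsd at 217 and 269.5 CPM, Ctss at 1387 and 1426 CPM and Ctsc at 331 and 748 CPM. A single cell gave 52.3% of the Ctsc UMIs in the library labelled cko. Ctsb and Ctsz had no call, with log2 ratios of 0.29 and 0.22 for Ctsb and 0.0072 and 0.00066 for Ctsz. Of the other cathepsins, only Ctso reached 100 UMIs, and it was higher at 145 and 191 against 31 and 33.3 CPM. Grn, the precursor of the granulins that lysosomal proteases release, was higher too, at 2204 and 2808 against 844 and 798 CPM, and the cystatin Cstb lower, at 259 and 269.5 against 908 and 866 CPM.

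Granulocytic cells, gated on S100a8 or S100a9 with Csf3r, Cxcr2 or Retnlg, had 2 members lower than in monocyte/macrophage cells and 0 higher, against 6.08% and 2.62% of genes. The members' median log2 ratio was -0.77 and -0.92, against -0.28 and -0.30 over all genes tested. Lgmn was at 612 and 429.7 against 1424 and 1409 CPM and Ctsb at 1179.8 and 1152 against 2399 and 2534 CPM. Ctsc, which activates neutrophil serine proteases, stood at 2139 and 1699 against 3530.3 and 3447 CPM and was past 2-fold in the library labelled cko only. Ctsd was at 674 and 711 against 603 and 576 CPM, with log2 ratios of 0.16 (-0.027 to 0.34) and 0.31 (0.18 to 0.43). The class held Csf1r, a monocyte and macrophage gene, at 313 and 237 CPM against 559 and 530.1 in monocyte/macrophage cells, and Lyz2 at 78.5% and 74.5% of the level there, and the part of monocytes in these values was not tested. With every gate threshold doubled, 6 members were lower instead of 2 and 1 was higher, and with TMM factors 1 was lower. Of the lists, 1 inhibitor was higher, 2 hydrolases were lower, and no other gene of the pathway lists was called.

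Almost all Ctsk came from 10 cells. The gate for Acp5, the tartrate-resistant acid phosphatase of osteoclasts, at 10 or more UMIs took 171 and 273 cells, but in each library the values left a gap: 7 and 3 cells had 100 or more Acp5 UMIs, the lowest of them 262 and 171, while the highest of the rest had 51 and 43. The split at 100 was set after these values were seen. Ctsk counted 697, 608, 686, 281, 737, 121 and 58 UMIs in the 7 cells labelled wt and 786, 197 and 138 in the 3 labelled cko. These cells made up 0.292% (0.117 to 0.601) and 0.113% (0.0234 to 0.331) of kept cells, but held 3188 of 3291 Ctsk UMIs (96.9%) and 1121 of 1167 (96.1%). Outside them, 103 and 46 UMIs were spread over 100 and 40 cells, with at most 2 and 5 in a cell. The level was 13314 and 13893 CPM inside and 4.37 and 1.75 CPM outside. A single cell gave 70.1% of the inside UMIs in the library labelled cko. The intervals of the 2 shares overlap.

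The label osteoclast-like was checked on 10 other markers. Mmp9, a matrix protease of osteoclasts and neutrophils, counted 338, 315, 429, 160, 346, 218 and 42 UMIs in the 7 cells labelled wt and 173, 125 and 112 in the 3 labelled cko, which gave 7718 and 5081 against 16.3 and 16 CPM. Atp6v0d2, the proton pump subunit of osteoclasts, counted 79, 65, 34, 18, 35, 24 and 8 UMIs in the 7 cells labelled wt and 75, 7 and 18 in the 3 labelled cko. Ocstamp, Dcstamp, Nfatc1 and Tnfrsf11a were found in all 10 cells, but cells this deep can show a gene that monocyte/macrophage cells also hold. Ocstamp and Dcstamp, needed for cell fusion, were at 731 and 818 against 117 and 157 CPM and at 376 and 545 against 0.309 and 0 CPM, and Nfatc1, the transcription factor of the lineage, was at 313 and 273 against 17.5 and 18.2 CPM. Dcstamp and Atp6v0d2 reached the minimum UMI count only through these 10 cells, so a call for either was fixed by that filter. Tnfrsf11a, the receptor RANK, had no call, at 87.7 and 37.2 against 24.4 and 23.1 CPM. Oscar was found in 8, Ckb in 9 and Itgb3 in 3. Calcr, the calcitonin receptor, was at 0 UMIs in all 10. Adgre1 (F4/80) was at 0 in 8 of the cells and at 1 in the others, Ly6c2 at 0 to 2, each C1q gene at 0 to 5 and Col1a1, a fibroblast gene, at 0. The 5 fibroblast markers together were at 0 and 0 CPM. The 4 tumor or epithelial markers were at 4.18 and 62 CPM, against 3.34 and 8.86 in monocyte/macrophage cells, and the 3 endothelial markers at 0 and 12.4 CPM against 42.8 and 44.9; the part of such cells was not tested. The cells were deep, with medians of 36059 and 25511 UMIs against 8342 and 8121 in monocyte/macrophage cells, and none was among the doublets removed.

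In these 10 cells the other proteases did not follow Ctsk. Against monocyte/macrophage cells, 1 member was higher (Ctsk) and 6 were lower, where 9.18% of genes were higher and 22.0% lower. The median log2 ratio of the members was -1.54 and -1.81, against 0.086 and 0.19 over all genes tested. Ctsc counted 4, 7, 2, 6, 1, 2 and 6 UMIs in the 7 cells labelled wt and 3, 3 and 4 in the 3 labelled cko, which gave 117 and 124 CPM against 3530.3 and 3447, with log2 ratios of -4.92 (-5.51 to -4.38) and -4.80 (-5.86 to -3.92). Every one of the 10 cells lay below the monocyte/macrophage level of Ctsc. Ctsh was at 109 and 112 against 914 and 909 CPM and Lgmn at 288 and 235 against 1424 and 1409 CPM. Ctsl was at 121 and 62 against 562 and 467 CPM and Ctsb at 1036 and 1189.8 against 2399 and 2534 CPM. Ctss, the neighbour of Ctsk on the chromosome, was at 961 and 607 against 3504 and 3494 CPM, and its UMIs varied between the cells, with 7, 8, 31, 42, 3, 40 and 99 UMIs in the 7 cells labelled wt and 10, 6 and 33 in the 3 labelled cko. The cell with the fewest Ctsk UMIs (58) had the most Ctss UMIs (99), at 3932 CPM the only one above the monocyte/macrophage level. Ctsa at 672 and 744 CPM, Ctsd at 994 and 843 CPM and Ctsz at 1136 and 706 CPM had no call, with log2 ratios of 0.31 and 0.35 for Ctsa, 0.72 and 0.55 for Ctsd and -0.073 and -0.79 for Ctsz.

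**Figure D3:**
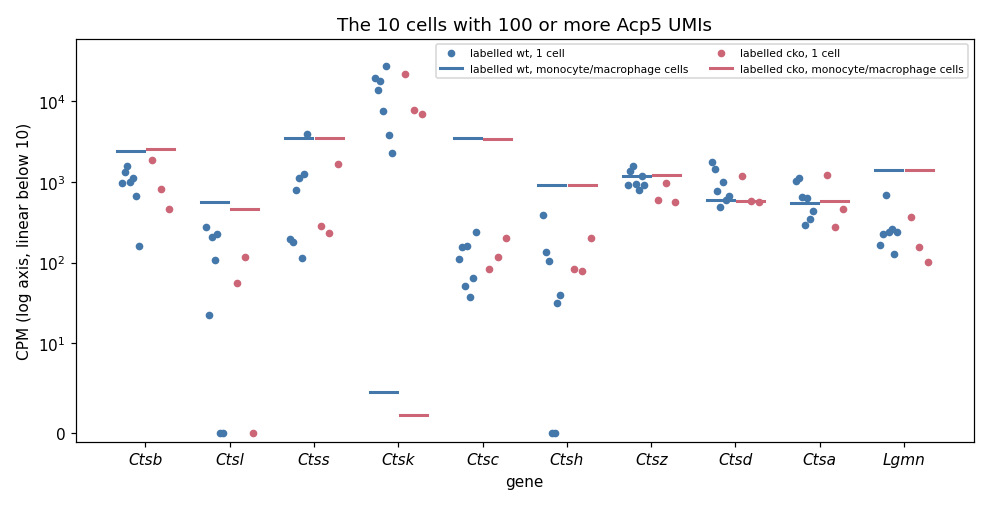
CPM of each member in the 10 cells with 100 or more Acp5 UMIs (points, 1 per cell, by library) with the level in monocyte/macrophage cells (bars), on a log axis that is linear below 10. All 10 points of Ctsk lie above the bars and all 10 of Ctsc, Ctsh and Lgmn below them, while those of Ctsa, Ctsd and Ctsz lie around them.

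The rest of the lysosome in these cells also parted into groups. Of 15 proton pump genes, 11 were higher and 0 lower, with Atp6v1b2 at 1324 and 1128 against 194 and 195 CPM; Atp6v0a1 and Atp6ap1 had no call. Atp6v0d2, also on the marker list, is not in this count, since it reached 100 UMIs only through the 10 cells, and stood at 1098 and 1239 against 1.17 and 1.03 CPM. The inhibitor Cst7 was higher at 37.6 and 86.8 against 9.46 and 8.99 CPM and Cstb at 2598 and 3098 against 908 and 866 CPM. Among membrane proteins and cofactors Cd63 was higher at 2013 and 1921 against 237 and 193 CPM and Cd68 at 1654 and 1661 against 795 and 797 CPM, and Lamp2 lower at 33.4 and 24.8 against 382 and 417 CPM. Of 18 hydrolases, 4 were higher and 4 lower. Over all genes tested 9.18% were higher and 22.0% lower, and the lower hydrolases did not stand out from that share. Of the 4 substrates and partners, 3 were lower, among them Cd74 at 2255 and 1909 against 18437 and 17812 CPM and H2-DMa at 45.9 and 112 against 882 and 859.8 CPM. Mitf, a regulator of lysosomal and osteoclast genes, was at 58.5 and 99.1 against 8.53 and 8.29 CPM.

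The remaining cells of the Acp5 gate, with 10 to 99 UMIs (164 and 270 cells), were another population. Of them, 93.3% and 95.6% held 10 or more C1q UMIs and 133 and 225 would have fallen in the C1q macrophage gates. Their median depth was 19604 and 18109.5 UMIs against 10137 and 9341 in C1q macrophages, and the part of depth in their Acp5 count was not tested. They are not called osteoclast-like here. Ctsk was at 3.26 and 1.35 CPM in them. None of 9 members tested differed 2-fold from C1q macrophages in both libraries, and the ratio furthest from 1 was that of Ctsb, at 6091 and 6123 CPM, 1.57- and 1.70-fold higher. With the whole gate of 10 or more UMIs, 2 members were higher than in monocyte/macrophage cells (Ctsb and Ctsk) and 0 lower, against 4.66% and 3.88% of genes. The Ctsk call there rests on the 10 cells above. The member counts of the whole gate changed with gates on thinned cells and with gate thresholds doubled, as given in the last section.

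Monocyte/macrophage cells of the 2 libraries were set side by side for the miR-21 comparison, which has 1 library on each side and so no replicate check. A ratio was called past 0.25 on the log2 scale. No member was higher in the library labelled cko and 2 passed as lower, Ctsl and Ctsk, where 11.2% of 9070 genes were higher and 5.84% lower. Ctsk reached 100 UMIs only through the library where it is high, so its call was fixed by that filter, and Ctsl is left as 1 of 9. The shares over all genes still include genes of that kind. The members' median log2 ratio was -0.011, against 0.029 for all genes tested. Ctsl was at 562 and 467 CPM, a log2 ratio of -0.27 (-0.31 to -0.22). Among the 761 genes whose mean reached 200 CPM, the 5th to 95th percentiles lay between -0.15 and 0.20. Ctsk was at 4.57 and 1.93 CPM, from 74 and 30 UMIs, with -1.25 (-1.91 to -0.62). Elsewhere Ctsk was too sparse to compare: granulocytic cells held 3 and 3 UMIs (178% and 209.7% of the monocyte/macrophage level), lymphocytes 5 and 2 UMIs (65.1% and 54.1%) and CD8 T cells 0 and 0 UMIs, which allows up to 5.07 and 3.60 CPM. The level over all kept cells, set by the 10 cells rich in Acp5, was 138 and 44.2 CPM, and the part of RNA from those cells in the ratio was not tested. The other 8 lay between -0.067 (-0.11 to -0.026) for Ctsd and 0.11 (0.065 to 0.15) for Ctsa, with Ctss at -0.0040 (-0.021 to 0.013), Ctsh at -0.0077 (-0.041 to 0.026) and Lgmn at -0.015 (-0.042 to 0.012). In the same cells Lyz2 had a log2 ratio of -1.03 (-1.04 to -1.02), and Acp5 of 0.29 (0.21 to 0.37). Cells with 10 or more Acp5 UMIs, 171 and 273 of them, had been taken out, so the Acp5 ratio is cut off by that gate.

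Ctsl was lower in 6 of the 7 monocyte and macrophage classes, each time beyond counting error. The ratio was -0.50 (-0.67 to -0.34) in C1q macrophages with Folr2, Vcam1 or Ccl8, -0.39 (-0.56 to -0.23) in those with Cd300e, Clec4b1 or Pparg, -0.38 (-0.46 to -0.30) in other C1q macrophages and -0.41 (-0.52 to -0.31) in other monocyte/macrophage cells. It was smaller in transitional cells, at -0.16 (-0.29 to -0.030), and in nonclassical monocytes, at -0.25 (-0.48 to -0.021), and was 0.072 (-0.027 to 0.17) in classical monocytes. Plasmacytoid dendritic cells and lymphocytes, with Lyz2 at 507 and 1269 and at 1031 and 261 CPM, had -0.40 (-0.67 to -0.13) and -1.09 (-1.60 to -0.59), the latter from 97 and 52 UMIs near the background level. Dendritic cells went the other way, at 38 and 112 CPM from 26 and 97 UMIs, with 1.56 (0.92 to 2.24). Among them, mature CCR7 cells stood at 33 and 245 CPM, where 1 cell gave 51.3% of the UMIs in the library labelled cko, and CD209a cells at 58.9 and 59.6 CPM. Whether these ratios differ between classes was not tested, and with 1 library each the genotype, the pool of mice and the library cannot be told apart.

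**Figure D4:**
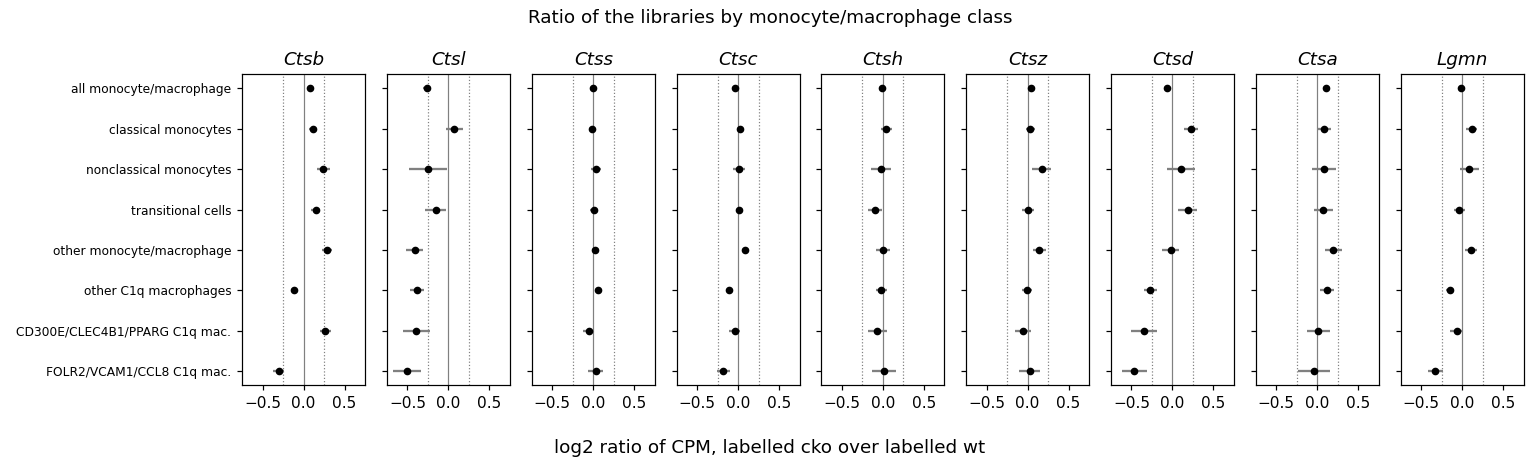
Log2 ratio of CPM, the library labelled cko over that labelled wt, for 9 members (panels) in all monocyte/macrophage cells and their 7 classes (rows). Bars are exact 95% intervals for counting error and dotted lines mark 0.25 either way; the points of Ctsl lie left of 0 in all rows but classical monocytes, and those of Ctss, Ctsh and Ctsz lie between the dotted lines.

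Of 64 genes tested on the pathway lists, 3 were higher in the library labelled cko and 4 lower, beside the 11.2% and 5.84% of all genes. In monocyte/macrophage cells, 1 of 18 hydrolases was higher in the library labelled cko, the lysosomal acid lipase gene Lipa, at 54.8 and 68.3 CPM, a log2 ratio of 0.32 (0.19 to 0.45). Of 13 membrane proteins and cofactors 2 were lower, Cd63 at 237 and 193 CPM, a log2 ratio of -0.30 (-0.37 to -0.23), and the channel Mcoln1 at 8.96 and 7.32 CPM, a log2 ratio of -0.29 (-0.66 to 0.073), whose interval includes 0. Of 6 inhibitors, Serpinb1a was higher at 13.4 and 18.4 CPM, a log2 ratio of 0.45 (0.19 to 0.72), and Serpinb9 lower at 14.9 and 12 CPM, a log2 ratio of -0.31 (-0.59 to -0.029). The proton pump gene Atp6v0a1 was lower at 19.96 and 16.5 CPM, a log2 ratio of -0.27 (-0.52 to -0.033), and the sorting receptor gene Sort1 higher at 6.55 and 9.70 CPM, a log2 ratio of 0.57 (0.20 to 0.94). None of the 4 substrates and partners was called.

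Across 34 points (17 classes in 2 libraries), the members were not a single block. On the log2(CPM + 1) scale Ctss and Ctsz (r = 0.90) and Ctss and Lgmn (r = 0.90) were the pairs most alike, and Ctsc and Ctsk (r = -0.35) the least, a value that rests on the 2 points of the cells with 100 or more Acp5 UMIs. Classes of 1 library share its depth and any carried-over RNA, so these are descriptions. Among 6706 other genes, the profile most like Ctsa was that of Cd68 (r = 0.95), most like Ctsc Fcgr4 (r = 0.96), most like Ctss Lyn (r = 0.96) and most like Lgmn Tmem106a (r = 0.94). For Ctsb it was Itm2b (r = 0.94), for Ctsh P2rx4 (r = 0.94), for Ctsz Lacc1 (r = 0.92) and for Ctsl Lifr (r = 0.86). Ctsd had the lowest best match, Capg (r = 0.85). That of Ctsk, Atp5l (r = 0.91), rests on the same 2 points.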

How the data were processed

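The authors deposited a matrix of UMI counts per gene and cell barcode for each library, whole numbers that they had not normalised. The submitters' processing notes name Cell Ranger, Seurat and the build mm10; versions are not given in the sources used here. Each library holds cells pooled from 3 mice, which leaves 1 sample per genotype and no test. Cells needed 200 genes and no more than 10% mitochondrial UMIs (4 and 14 failed), and Scrublet (scanpy 1.11.5, Python 3.11.15) scored doublets. Its own threshold marked 2 and 5 cells, under 0.5%, so the 48 and 59 cells with the highest scores were removed, at a rate of 0.8% per 1000 cells. Classes were gated on marker UMIs, and counts were summed per class and scaled to CPM. A gene needed 100 UMIs over the classes and libraries compared. Ratios have exact conditional binomial 95% intervals and shares Clopper-Pearson intervals, both for counting error only. The scripts were tested on simulated counts. The alternatives were no doublet removal, a 5% mitochondrial limit, gates on cells thinned to 3000 UMIs, gate thresholds doubled, the mean over cells, TMM factors (edgeR 4.0.16), leaving out the top cell of each gene, a minimum of 10 UMIs, other Acp5 thresholds, subtraction of carried-over RNA and other thinning depths. All members are named. The other lists were inhibitors, other cathepsins, hydrolases, membrane proteins and cofactors, proton pump, sorting genes and regulators, and substrates and partners. Of these, the genes with the 2 highest and 2 lowest ratios of a comparison were to be named. That rule was not kept in every comparison, and other listed genes were named after their values were seen. The members and lists were chosen with earlier results of these data known. Rows of miR-21, T-cell receptor and immunoglobulin constant genes were not analysed here.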

Additional observations from a re-analysis of the deposited data

Results flagged for a closer look

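Within the monocyte and macrophage cells, 4 members had ratios between the libraries of opposite sign in different classes, each with an interval that excluded 0. With 1 library per genotype the differences between classes were not tested. In C1q macrophages with Folr2, Vcam1 or Ccl8, which were 49 and 48 cells, all 4 were lower in the library labelled cko. Ctsb had a log2 ratio of -0.31 (-0.38 to -0.24) there and of 0.28 (0.22 to 0.34) in the other monocyte/macrophage cells. Ctsc had -0.18 (-0.25 to -0.10) there and 0.088 (0.044 to 0.13) in the other monocyte/macrophage cells. For Ctsd the values were -0.47 (-0.62 to -0.32) there and 0.22 (0.14 to 0.31) in classical monocytes. For Lgmn they were -0.33 (-0.42 to -0.23) and 0.12 (0.047 to 0.19) in the same classes. The ratios over all monocyte/macrophage cells were 0.079 (0.059 to 0.099), -0.034 (-0.051 to -0.017), -0.067 (-0.11 to -0.026) and -0.015 (-0.042 to 0.012) for Ctsb, Ctsc, Ctsd and Lgmn, and the classes took unequal shares of the cells in the libraries.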

How the results depend on the processing

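No paired analysis was possible because each genotype has 1 library and the labels give no replicate that pairs cells. Of 116 recomputed counts of members, 103 stayed within 1.5 times the reported count. The counts for macrophages against lymphocytes, macrophages against classical monocytes, and dendritic cells did not move past that under any alternative run. Granulocytic cells had 2 members lower and 0 higher, but 6 lower with gates on thinned cells, 6 lower and 1 higher with thresholds doubled, 5 lower and 1 higher as a mean over cells, and 1 lower with TMM factors. Cells of the Acp5 gate had 2 members higher and 0 lower, but 1 higher and 3 lower with gates on thinned cells, 1 higher with thresholds doubled, and 1 higher and 6 lower with at least 100 Acp5 UMIs, a threshold chosen after seeing the data. Between the libraries 2 members were lower, of which Ctsk passed the minimum of 100 UMIs only through the library where it is high; with gates on thinned cells or with thresholds doubled it fell under that minimum and 1 (Ctsl) was left. The cause was not tested for the other changes.

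Of 80 recomputed log2 ratios of the library labelled cko over that labelled wt, 62 stayed within the interval of the reported ratio, 18 left it, and none that was called changed sign. Ctsl ranged from -0.35 to -0.26 and Ctsk from -1.47 to -0.996, while Ctsh, Ctss and Lgmn crossed 0 within -0.031 to 0.030, -0.028 to 0.0050 and -0.039 to 0.052. Without replicates, no spread between mice is known. The 10 cells with most Acp5, and the dendritic classes of 13 to 32 cells, limit what depth can show.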
